A study of Mus musculus with 6 samples.

Results

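Called binding sites of PU.1 were described at 6 mouse microRNA loci: Mir146, Mir155, Mir342, Mir338, Mir21a and Mir142. Once the windows were set, the members were chosen by position alone. They were every peak that overlapped a window of 110 kb around a locus, or of 30 kb for Mir142. No measured value entered that step, but the loci and windows were chosen with earlier results of these data known. The windows held 49 of the 82810 regions that the peaks of 4 libraries formed when overlapping peaks (at least 1 bp in common) were merged. Binding was mapped by ChIP-seq, the sequencing of DNA fragments precipitated with an antibody against PU.1, in iBN cells. The labels describe BN cells as a granulocyte-macrophage progenitor and iBN cells as carrying a PU.1-inducible system; all were grown with GM-CSF. Doxycycline had been given to the induced cells at 1000 ng/ml over 72 hours (2 libraries), and none to the uninduced cells (2 libraries). Cells without the inducible system that had received doxycycline were not analysed here, so effects of the drug and of the PU.1 it induces cannot be told apart. The files hold binding sites and no expression, so neither the labelled cell type nor the level of any microRNA could be checked.

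A microRNA is cut from a hairpin in a longer primary transcript, and 1 or both arms of the hairpin become mature RNAs that guide repression of messenger RNAs, mainly through pairing of the seed near the 5′ end. PU.1, a transcription factor of the ETS family, is needed for the development of myeloid and B-lymphoid cells and acts at promoters and at distant enhancers. Because the primary transcript can start far from the hairpin, sites across a wide window can belong to a microRNA gene or to its neighbours. miR-146a dampens innate immune signalling by repressing Traf6 and Irak1. miR-155 rises in activated macrophages and represses Inpp5d, which encodes the phosphatase SHIP1. miR-342 lies in an intron of Evl, and miR-338 in an intron of Aatk. miR-21 is expressed in many tissues and represses Pdcd4. miR-142 is largely restricted to blood cells, where it is abundant.

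All 6 loci were found in RefSeq's table of mouse microRNAs, with 12 mature RNAs and 12 different seeds between them. The sequences below identify the products of the loci and show which ones share a seed with a microRNA encoded elsewhere. They are from RefSeq (GRCm38.p6), run 5′ to 3′, and have the seed, bases 2 to 8, in capitals.
mmu-miR-146a-5p: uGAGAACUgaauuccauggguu
mmu-miR-146b-5p: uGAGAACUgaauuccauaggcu
mmu-miR-155-5p: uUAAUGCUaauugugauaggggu
mmu-miR-342-3p: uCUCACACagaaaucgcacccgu
mmu-miR-338-3p: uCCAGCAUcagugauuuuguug
mmu-miR-21a-5p: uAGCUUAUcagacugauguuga
mmu-miR-21c: uAGCUUAUcagacugguacaa
mmu-miR-142a-3p: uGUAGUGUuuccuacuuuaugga
mmu-miR-142a-5p: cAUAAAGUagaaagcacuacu

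No seed was common to any pair of the 6 loci. Outside them, the seed of miR-146a-5p occurred in miR-146b-5p, with 20 of 22 bases the same, and that of miR-21a-5p in miR-21c, with 16 of 21. The other 10 mature RNAs of the loci shared their seed with no further entry of the table. Mir146b and Mir21c lie on other chromosomes and their sites are not described here. In the RefSeq gene order of the same assembly, Mir155 lies within the long noncoding RNA gene Mir155hg, Mir342 within Evl and Mir338 within Aatk. Mir21a overlaps Vmp1, and Mir142 overlaps a microRNA gene of the opposite strand, Mir142b, and lies between Supt4a and Tspoap1. Mir146 overlaps no other gene and lies between the coding genes Atp10b and Pttg1. The peak files use the build mm9 and no annotation of that build was used, so peaks are placed by their distance from the centre of the window and not by exon, intron or promoter.

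Every window held called peaks in every library. Across the 6 windows there were 42 peaks in induced replicate 1, 36 in induced replicate 2, 22 in uninduced replicate 1 and 35 in uninduced replicate 2. Both induced libraries were above both uninduced ones, but induced replicate 2 and uninduced replicate 2 differed by a single peak. The means were 39.0 ± 4.24 and 28.5 ± 9.19 peaks (SD, n = 2 each), a ratio of 1.37, with an exact two-sided permutation p of 0.333. Peaks covered 56.7 and 45.5 kb of the windows when induced and 24.8 and 38.0 kb when uninduced. The means were 51.1 ± 7.94 and 31.4 ± 9.29 kb (SD, n = 2 each), a ratio of 1.63, with the same exact p of 0.333. No lower p is possible with 4 libraries in groups of 2, so no such comparison could pass a threshold of 0.05. Over the whole lists the corresponding ratios were 1.67 for peak number and 1.94 for covered length. The lists differ in length, from 31960 to 68076 peaks, their read depth is unknown, and whether replicates came from separate cultures is not given in the labels.

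**Figure D1:**
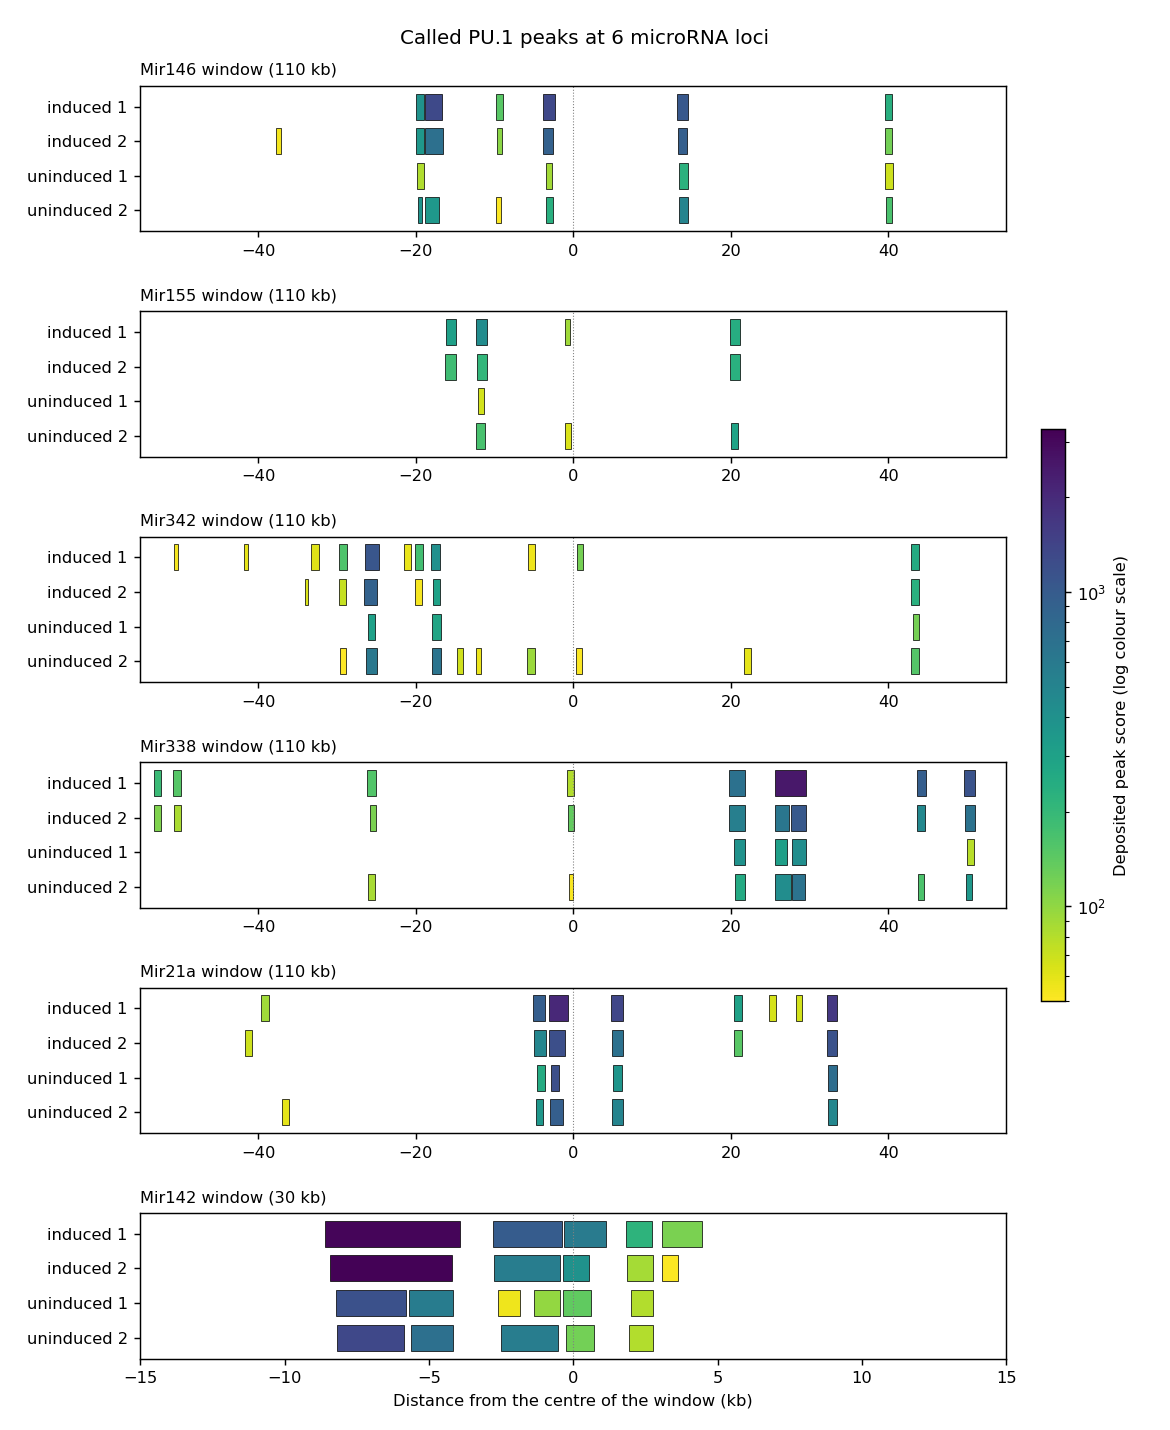
Called PU.1 peaks of the 4 libraries (rows) in the 6 windows, drawn as boxes at their distance in kb from the window's centre (horizontal axis) and coloured by the authors' score on a log colour scale. The Mir142 panel spans 30 kb and the others 110 kb; uninduced replicate 1 has the fewest boxes in all 110-kb windows.

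Covered length was higher in both induced than in both uninduced libraries in 5 of the 6 windows; Mir342 was the exception. Of all 110-kb tiles of the genome with a peak in any library, 56.3% showed that order, as did 52.4% of the 30-kb tiles, the size of the Mir142 window. The reverse order was seen at none of the loci and in 11.3% of the 110-kb tiles. Tiles are laid out regardless of genes, so they are a background for counts and not a set of comparable loci. In 110-kb tiles with a peak, the median library-wise coverage ran from 0.942 kb in uninduced replicate 1 to 2.32 kb in induced replicate 1.

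**Figure D2:**
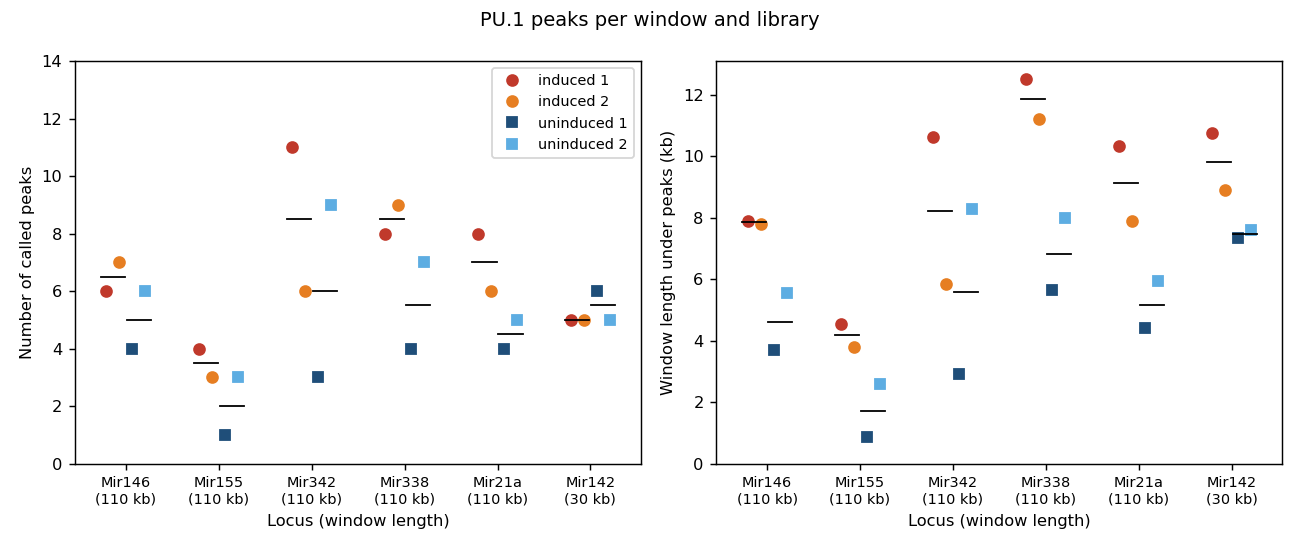
Number of called peaks (left) and kb of the window under peaks (right) for each locus; each point is 1 library, circles are induced, squares uninduced, and black lines are the means of 2 libraries. In covered length the induced and uninduced points overlap only at Mir342.

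The 49 regions were sorted by the libraries that held a peak. In 19 regions all 4 libraries did, and these are called shared. In 6 regions both induced libraries had a peak and neither uninduced one did (gained), none showed the reverse (lost), and 24 were mixed. Shared regions made up 38.8% (95% Wilson interval 26.4 to 52.8%) of the members and 23.4% of all regions. Gained regions made up 12.2% (5.73 to 24.2%) of the members and 22.2% of all regions. For lost regions, 0 of 49 gives a 95% Wilson interval of 0 to 7.27%, which includes the 3.80% of all regions. Neighbouring regions share libraries and chromatin, so the intervals cover counting error only and are too narrow as a measure of the difference. All 19 regions with a peak in both uninduced libraries had one in both induced libraries, as did 80.3% of such regions in the whole series. Among the 32 regions that both induced libraries held, 6 (18.8%) had no uninduced peak, against 35.9% in the whole series.

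Most of the mixed regions depended on a single library. Of the 24, 7 lacked a peak in uninduced replicate 1 alone, which is 14.3% of the members, against 14.6% of all regions; 3 of them lay at Mir338, 2 at Mir146, and 1 each at Mir155 and Mir342. Without uninduced replicate 2 these 7 join the gained regions, which then number 13 (28.9% of the members, against 38.4% of all regions). They also number 13 without induced replicate 2 (28.3% against 39.3%). Without uninduced replicate 1, 4 regions would be called lost, 8.16% of the members against 8.41% of all regions. A further 3, at Mir155 and Mir342, had a peak in induced replicate 1 and uninduced replicate 2 (6.12% of the members against 1.68% of all regions). The other 14 were found in 1 library only. Of these, 7 were in induced replicate 1 (14.3% of the members against 15.4% of all regions) and 3 in induced replicate 2 (6.12% against 3.92%). In uninduced replicate 2 there were 4 (8.16% against 4.14%), and in uninduced replicate 1 none (against 5.46%). Scores of these 14 regions were low, from 53.2 to 90.3 with a median of 60.3, where 50 is the lowest score in the lists. At Mir342 there were 8 of them. Of the 14, 9 had a peak in one of the authors' merged lists.

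**Figure D3:**
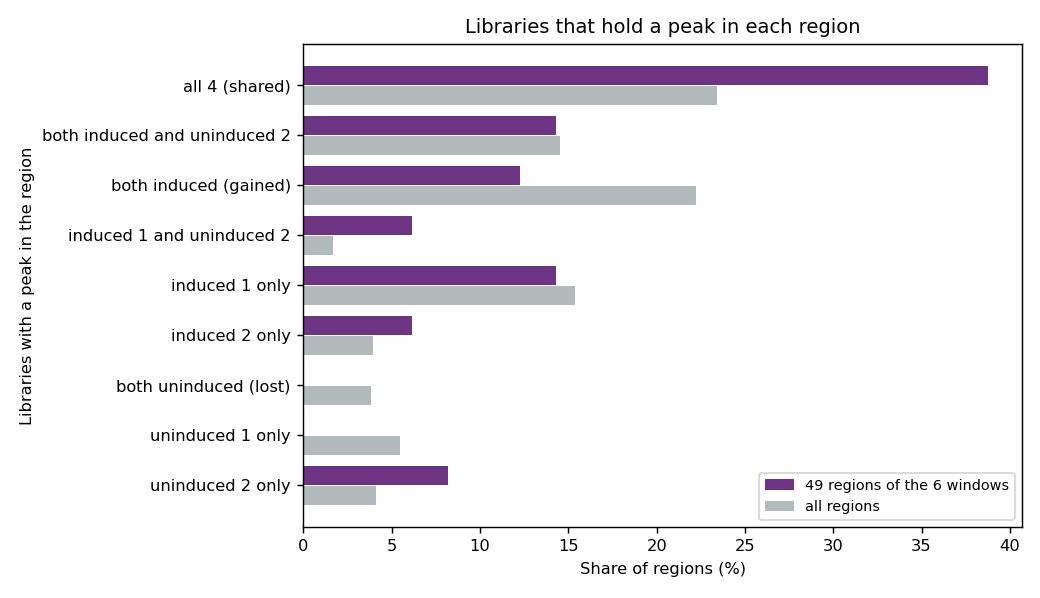
Share of regions in % (bars) for each combination of libraries that held a peak, for the 49 regions of the 6 windows and for all 82810 regions. The members have the longer bar for peaks in all 4 libraries (38.8% against 23.4%) and the shorter one for peaks in both induced libraries only (12.2% against 22.2%).

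The score is the authors' value for each peak, and its level differs between lists. To compare libraries, the 19391 shared regions of the genome were ranked by score within each library, and a region's percentile is given on that common set. The 19 shared members ranked above the middle, with median percentiles of 74.5 and 70.8 when induced and 59.8 and 68.2 when uninduced, where all shared regions have 50 by construction. The condition means of these library medians differed by 8.61 percentile points (exact two-sided permutation p = 0.333), while the median of the differences of single regions was 4.45 points, against 0.22 over all shared regions. Without uninduced replicate 1 the difference of the medians was 4.40 points over the same 19 regions. It was -1.51 points over the 26 regions shared by the other 3 libraries, which are another set of regions. In the central 50 kb of the windows it was 4.70 points (exact permutation p = 0.667). Against uninduced replicate 1, 15 of the 19 regions ranked higher in induced replicate 1 and 15 in induced replicate 2, and against uninduced replicate 2, 12 and 11 did. Over all shared regions these 4 shares lay between 49.0% and 50.7%. In 7 of the 19 regions (36.8%) both induced percentiles exceeded both uninduced ones, against 30.6% of all shared regions, and in 1 region, at Mir342, both were lower, against 30.8%. In the other 11 the conditions overlapped. The length under peaks was greater in both induced than in both uninduced libraries in 14 of the 19 regions (73.7%), against 49.9% of all shared regions, and smaller in 1, against 5.78%. The median ratio of peak length was 1.18 among the members and 1.15 among all shared regions.

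**Figure D4:**
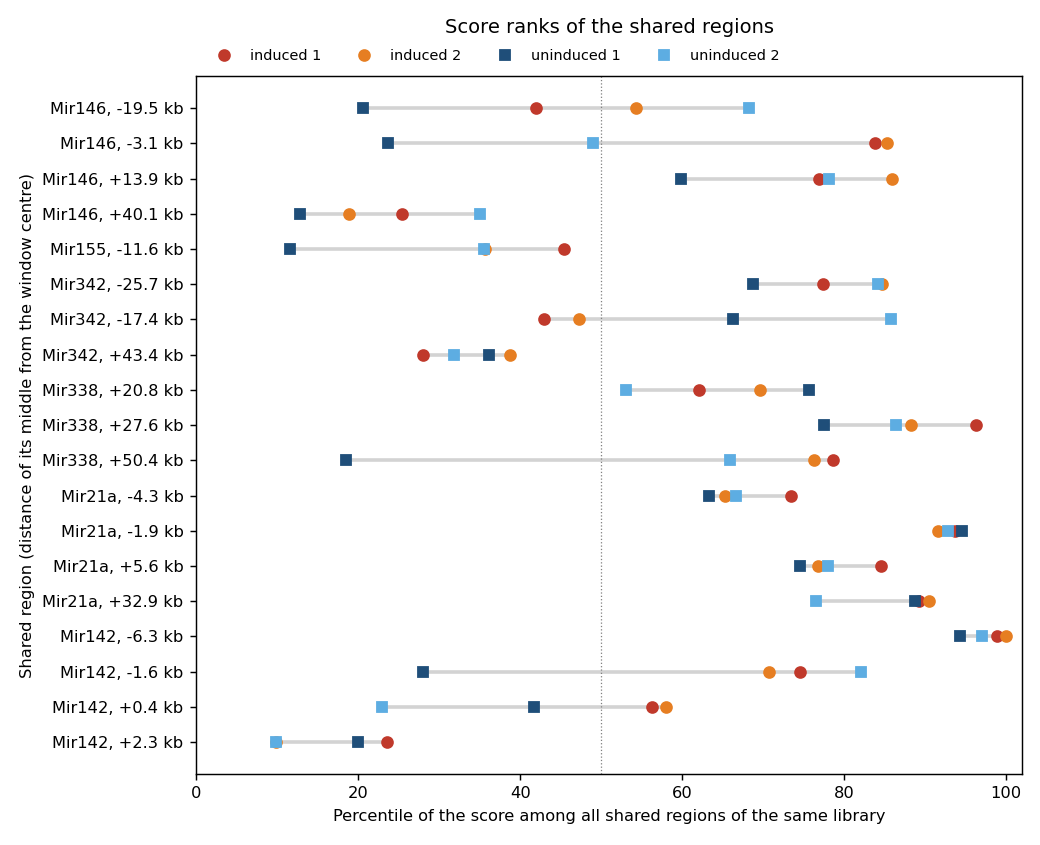
Percentile of the score among all shared regions of the same library (horizontal axis) for each of the 19 shared members (rows, with the distance of the region's middle from the window centre in kb); circles are induced and squares uninduced libraries. The Mir146 row at -3.1 kb and the Mir338 row at +50.4 kb have the greatest differences between the means of circles and squares, in favour of the circles. The Mir342 row at -17.4 kb has both circles to the left of both squares.

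At Mir146, in the window chr11:43130001-43240000, 7 regions were found, of which 4 were shared, none was gained and 3 were mixed. The libraries held 6 and 7 peaks when induced and 4 and 6 when uninduced, so peak numbers touched between conditions. Covered length was 7.91 and 7.81 kb induced and 3.69 and 5.56 kb uninduced, with no overlap, a ratio of 1.70 and an exact permutation p of 0.333. The region nearest the centre, chr11:43181152-43182653, ended 2.35 kb before it. It scored 1339.9 and 919.5 when induced and 89.1 and 236 when uninduced. Its percentiles were 83.9 and 85.3 against 23.7 and 49.0, a difference of 48.2 points, and its peaks were 1484 and 1271 bp long against 761 and 937 bp. This was the greatest upward difference in rank among the 19 shared members, and the conditions did not overlap in rank or in length. The region chr11:43198218-43199588, 13.2 kb beyond the centre, had percentiles of 76.9 and 85.9 induced and 59.8 and 78.1 uninduced, which overlap.

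At lower coordinates, a pair of neighbouring Mir146 regions lay 68 bp apart. The first, chr11:43164982-43166093, was shared, with percentiles of 42.0 and 54.3 induced and 20.6 and 68.2 uninduced, so that the uninduced replicates lay on either side of the induced ones. The second, chr11:43166162-43168461, scored 1299.9 and 713 in the induced libraries, above 94.3% and 90.7% of the peaks of those lists. It had a peak in uninduced replicate 2 (score 352, list percentile 83.4) and none in uninduced replicate 1. It was the strongest member that was not shared. The shared region chr11:43224559-43225568, at the far end of the window, was weaker and overlapped between conditions, with percentiles of 25.4 and 18.9 induced and 12.8 and 35.0 uninduced.

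At Mir155, in the window chr16:84660001-84770000, 4 regions were found: 1 shared, 1 gained and 2 mixed. It was the sparsest of the loci in every library, with 4 and 3 peaks when induced and 1 and 3 when uninduced. Covered length was 4.55 and 3.81 kb induced and 0.855 and 2.60 kb uninduced, a ratio of 2.42 (exact permutation p = 0.333), and the ratio of single libraries ran from 1.46 to 5.32. It was 4.88 without uninduced replicate 2 and 1.60 without uninduced replicate 1. The gained region, chr16:84698745-84700121, scored 308 and 185 in the induced libraries, at the 68.1 and 59.4 list percentiles, the highest among the 6 gained members in both. The shared region, chr16:84702693-84704090, lay 2571 bp further on. Its percentiles were 45.4 and 35.6 induced and 11.6 and 35.5 uninduced, and its peaks were 1391 and 1284 bp long against 855 and 1034 bp, so in rank induced replicate 2 and uninduced replicate 2 were almost level. A region near the centre, chr16:84713920-84714756, had weak peaks in induced replicate 1 (score 90.6) and uninduced replicate 2 (63.3) only. The region chr16:84734938-84736169 lacked a peak in uninduced replicate 1, while its score in uninduced replicate 2, 292, was above 79.2% of that list.

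At Mir342, in the window chr12:109840001-109950000, 15 regions were found, the most of any locus: 3 shared, 1 gained and 11 mixed. Peak numbers were 11 and 6 when induced and 3 and 9 when uninduced. Covered length was 10.6 and 5.85 kb against 2.91 and 8.29 kb. The uninduced values lay on either side of induced replicate 2, so the conditions overlapped, with a ratio of 1.47 and an exact permutation p of 0.667. Without uninduced replicate 1 the ratio of covered length was 0.994, and without uninduced replicate 2 it was 2.83. The strongest region, chr12:109868411-109870268, was shared, with percentiles of 77.4 and 84.7 induced and 68.8 and 84.1 uninduced. The region chr12:109876960-109878238, 16.8 kb before the centre, went the other way. Its scores were 407 and 295 induced and 279 and 655 uninduced, and its percentiles 42.9 and 47.3 against 66.2 and 85.8, a difference of -30.9 points. Its peaks were also shorter in the induced libraries, 1054 and 939 bp against 1141 and 1100 bp. It was the single shared member in which both induced libraries lay below both uninduced ones in rank, and also the single one in length. The gained region between them, chr12:109874862-109875958, was near the detection limit in induced replicate 2, with scores of 178 and 52.6. At the centre, chr12:109895324-109896213 had peaks in induced replicate 1 (score 121) and uninduced replicate 2 (50.9) only. The third shared region, chr12:109937848-109938966, overlapped between conditions in rank, with percentiles of 27.9 and 38.8 induced and 36.2 and 31.8 uninduced. The mixed region chr12:109865220-109866288 had scores of 160 and 72.5 induced and 50.7 in uninduced replicate 2, and no peak in uninduced replicate 1.

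At Mir338, in the window chr11:119820001-119930000, 8 regions were found: 3 shared, 2 gained and 3 mixed. Peak numbers were 8 and 9 when induced and 4 and 7 when uninduced, without overlap. Covered length was 12.5 and 11.2 kb induced and 5.64 and 8.01 kb uninduced, again without overlap, a ratio of 1.74 and an exact permutation p of 0.333. The region at the centre, chr11:119874175-119875121, was weak, with scores of 81.3 and 136 when induced and 51.7 in uninduced replicate 2, and no peak in uninduced replicate 1. The strong sites had their middles 20.8 to 50.4 kb beyond the centre. The widest, chr11:119900642-119904543, was called as 1 peak of 3893 bp in induced replicate 1 and as 2 peaks in each of the other 3 libraries. Its percentiles were 96.3 and 88.2 induced and 77.5 and 86.4 uninduced, with both induced values above both uninduced ones but replicates 2 of the conditions close together. Near the window's edge, chr11:119924684-119926067 had percentiles of 78.6 and 76.3 induced and 18.4 and 65.9 uninduced, a difference of 35.3 points. Its neighbour, chr11:119918707-119919859, scored 966 and 466 when induced and 163 in uninduced replicate 2, and had no peak in uninduced replicate 1. The shared region chr11:119894753-119896867 overlapped between conditions in rank, with 62.0 and 69.6 against 75.7 and 53.1. The gained regions, chr11:119821693-119822657 and chr11:119824134-119825203, lay at the opposite edge, with scores of 193 and 113 for the first and 152 and 85.7 for the second.

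At Mir21a, in the window chr11:86340001-86450000, 10 regions were found: 4 shared, 1 gained and 5 mixed. Peak numbers were 8 and 6 when induced and 4 and 5 when uninduced. Covered length was 10.4 and 7.91 kb induced and 4.41 and 5.94 kb uninduced, without overlap, a ratio of 1.76 and an exact permutation p of 0.333. The 4 shared regions ranked high in every library, with medians per library from 77.3 to 86.9. The strongest, chr11:86391881-86394294, ended 0.706 kb before the centre. Its scores were 2069.9 and 1208 induced and 1205 and 945 uninduced, and its percentiles 93.7 and 91.5 against 94.5 and 92.8, a difference of -1.05 points. The conditions overlapped in rank, while its peaks were longer in both induced libraries, 2414 and 2004 bp against 1016 and 1722 bp. The regions on either side, chr11:86389839-86391482 and chr11:86399800-86401305, overlapped between conditions in rank, with differences of 4.32 and 4.45 points. The region chr11:86427240-86428524, with its middle 32.9 kb beyond the centre, had percentiles of 89.3 and 90.5 induced and 88.7 and 76.5 uninduced. The gained region, chr11:86415435-86416473, scored 303 and 149, at the 67.7 and 52.4 list percentiles. The 5 mixed regions each had a peak in a single library, with scores from 59.4 to 90.3.

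At Mir142, in the window chr11:87555001-87585000, 5 regions were found within 13.1 kb: 4 shared, 1 gained and none mixed. It was the most densely covered locus by share of its window, with 35.9% and 29.7% under peaks when induced and 24.5% and 25.3% when uninduced. This window is 30 kb long and the others 110 kb, so the shares are of unlike lengths. In kb, Mir338 had more under peaks in both induced libraries (12.5 and 11.2 kb) and in uninduced replicate 2 (8.01 kb). In uninduced replicate 1 it had less (5.64 kb). Mir342 also had more than Mir142 in uninduced replicate 2 (8.29 kb). Of the 30-kb tiles with a peak in any library, 0.574% and 0.667% reached the Mir142 coverage in the induced lists and 0.111% and 0.249% in the uninduced lists. For the other loci, 5.51 to 55.8% of such 110-kb tiles reached the coverage of the locus in the same library. Covered length at Mir142 was 10.8 and 8.91 kb against 7.35 and 7.60 kb, without overlap, a ratio of 1.32 that was the lowest of the 6 loci (exact permutation p = 0.333). Peak numbers were 5 and 5 induced and 6 and 5 uninduced. The induced peaks fell in 5 regions and the uninduced ones in 4. Both uninduced libraries had 2 peaks in the widest region, uninduced replicate 1 had 2 in the region next to it, and neither had a peak in the gained region.

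The widest Mir142 region, chr11:87561392-87566059, was called as 1 peak in each induced library (4668 and 4252 bp) and as 2 peaks in each uninduced library. Its highest scores were 3100 and 3205 induced and 1175 and 1325 uninduced, and its percentiles 98.9 and 99.98 against 94.2 and 97.1. The value 3100 recurs at the top of the lists, so the order among the highest scores is uncertain. The region chr11:87567229-87569600 had percentiles of 74.5 and 70.8 induced and 28.0 and 82.0 uninduced, with the induced values between the uninduced ones. The region that spans the centre, chr11:87569638-87571117, had scores of 590.1 and 398 induced and 139 and 122 uninduced. Its percentiles were 56.3 and 58.0 against 41.8 and 22.9, a difference of 24.8 points without overlap, while its peaks, 1428 and 910 bp against 987 and 999 bp, overlapped in length. The shared region chr11:87571844-87572778 was weak and overlapped between conditions in rank, with percentiles of 23.5 and 9.80 induced and 19.9 and 9.84 uninduced. Its peaks were longer in both induced libraries, 901 and 893 bp against 780 and 846 bp. The gained region, chr11:87573065-87574452, scored 117 and 51.3, the second value just above the lowest score that the lists hold.

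The 6 gained members were of middling or low strength in their own lists. Their list percentiles ran from 38.6 to 68.1, with a median of 53.8, in induced replicate 1 and from 1.72 to 59.4, with a median of 35.6, in induced replicate 2. Both induced scores reached 100 in 3 of the 6, at Mir155, Mir21a and the first Mir338 region. The 19 shared members, by contrast, had median list percentiles of 91.0 and 87.2 in the same libraries. A shared region had to pass the authors' threshold in 4 lists and a gained one in 2, so this order can follow from the definition. The merged induced list of the authors held all 6 gained members, and their merged uninduced list held none of them. All 19 shared members had a peak in both merged lists. The merged lists held 43 induced and 27 uninduced peaks in the windows, each of which overlapped a peak of a replicate of its condition.

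The window edges set which regions count. The nearest region outside a window was 2.41 kb away, a shared region before the Mir338 window with a highest score of 1043, and the region nearest an edge on the inside lay 1.69 kb from it, also at Mir338. At Mir142 a shared region with a highest score of 719.9 lay 3.36 kb before the window, and a gained one, at 174, lay 5.36 kb after it. Within the central 50 kb of each window, with Mir142 kept whole, 14 of 30 regions were shared and 4 gained. These were 46.7% and 13.3% of the regions there, against 23.4% and 22.2% of all regions.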

How the data were processed

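PU.1 ChIP-seq peak lists of iBN cells were used: 2 induced and 2 uninduced libraries and 1 merged list per condition. The 2 input libraries were left out. Trim Galore, Bowtie, MACS 1.4.1 and build mm9 are named in the submitters' processing notes; the sources used here do not give the control of peak calling, the read filters or the merging of replicates. The deposited score is 1 value per peak on a scale the sources do not give, and grows as a peak's p-value falls. Where no peak was called, binding may still be present. Intervals were merged, counted and ranked with Python 3.11.15, NumPy 2.4.6, SciPy 1.17.1 and pandas 2.3.3, and drawn with matplotlib 3.10.9. Positions are in mm9, counted from 1. The functions were tested on simulated lists. Percentiles within a list give the share of its peaks scoring at or below a peak. Where a region held more than 1 peak of a library, the highest score and the summed length were used. Tests were exact two-sided permutations over libraries. Regions named are the 5 highest-scoring of each window, the one nearest its centre and every lost one; others were chosen after their values were seen. The loci, windows and tests were chosen with earlier results of these data known. Alternatives were a minimum score of 100, equal list lengths (31960 peaks), the central 50 kb, an overlap of 50% of both intervals, leaving out each library, the merged lists and a replicate block. No region was searched for motifs, because no mm9 sequence was used here.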

Additional observations from a re-analysis of the deposited data

How the results depend on the processing

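Covered length and peak number over the 6 windows stayed higher in the induced libraries under every alternative tried. Leaving out 1 library, the ratio of covered length ran from 1.35 to 2.06 and that of peak number from 1.11 to 1.77; with lists of equal length they were 1.4 and 1.04. The difference in median rank of shared regions was -1.51 points without uninduced replicate 1, where 26 regions replaced the 19, and 6.68 to 12.04 points without each other library. Over the same 19 regions, an alternative chosen after seeing the data, it was 4.40 to 12.8 points without 1 library. In the central 50 kb, where 14 regions were shared, the difference with all 4 libraries was 4.70 points (exact permutation p = 0.667). Gained regions numbered 2 with lists of equal length, 7.14% of the members against 12.4% of all regions under that setting. Without 1 library they numbered 6 to 13, or 12.2 to 28.9% of the members against 25.4 to 39.3% of all regions. The count of 13 was reached without induced replicate 2 and without uninduced replicate 2. Shared regions numbered 12 with scores of at least 100 (36.4% against 22.7%) and 18 with lists of equal length (64.3% against 27.9%). Without 1 library they numbered 19 to 26 (41.3 to 53.1% against 25.7 to 40.1%). Lost regions numbered 1 with an overlap of 50% of both intervals, 1.85% of the members against 4.24% of all regions. It was the second of the paired uninduced peaks at the widest Mir142 region. Without 1 library lost regions numbered 0 to 4, with 4 (8.16% against 8.41%) reached without uninduced replicate 1. At single loci, directions were compared with that of the main setting. There, peak number at Mir142 was lower when induced (ratio 0.909), and all other ratios were above 1. The 108 alternative ratios include those of the replicate block (below) and of Mir142 in the central 50 kb, which equal the main ones by construction. Of the 108, 3 were level and 4 reversed. These 4 were peak number at Mir342 with lists of equal length (0.857) and without uninduced replicate 1 (0.944; 2.83 without uninduced replicate 2), covered length at Mir342 without uninduced replicate 1 (0.994; 2.83 without uninduced replicate 2), and peak number at Mir142 with scores of at least 100 (1.14). The causes were not tested. With a replicate block, in which labels are exchanged only within a replicate number, the ratios stay 1.63 and 1.37 by construction, with an exact permutation p of 0.5, the smallest it allows. The number is not known to pair the libraries: deviations of same-numbered libraries correlated at -0.087 over 110-kb tiles. Read depth is unknown, so differences of list length and of binding cannot be told apart.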
